A study of Mus musculus with 80 samples.

Results

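The genes described here encode subunits and helpers of the proteasome and enzymes that attach ubiquitin to proteins or remove it. They were taken from the annotation of a mouse cDNA array as every gene with a proteasome symbol (Psma to Psmg followed by a number), a ubiquitin-conjugating symbol (Ube2), a ubiquitin-like activating symbol (Uba1 to Uba7) or a ubiquitin-specific protease symbol (Usp followed by a number), without Usp9x and Usp9y, on a spot that names 1 gene only. The rule found 100 genes on 157 spots, of 7151 genes named this way and 16896 spots in all. Of these, 40 were proteasome genes and 60 were ubiquitin enzyme genes. Where a gene had several spots, as 41 of the 100 did, the spot with the highest mean over all mice stood for it. Psmb6, the interferon-induced subunits Psmb8, Psmb9 and Psmb10, the activator subunit Psme2, and Uba1 were among the genes not analysed here.

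Lung RNA was measured in 40 C57BL/6 mice that ate regular feed without limit, which all groups shared. There were 5 males and 5 females in each of 4 age groups, at 17 to 44, 169 to 194, 476 to 499 and 704 to 743 days. Each mouse gave 1 array of each of 2 spot sets, called A and B, and the question was how age and sex relate to transcript levels. The values are z scores within an array: 0 is the mean of the spots on that array and 1 is their SD, so every level is relative to the other spots and no fold can be given. Mean correlations of an array with its own group ran from 0.869 to 0.962 on A and from 0.917 to 0.969 on B. In 1 male of 714 days the title and the description name different mice. Whole lung was used, so fewer cells of a type and less RNA per cell cannot be told apart. Of the lung epithelium markers, the surfactant protein gene Sftpd was measured (1 of 8 listed), with group means from -0.122 to -0.019, and of the endothelial ones Pecam1 and Cdh5 (2 of 5), with group means of their average from 0.482 to 0.609; the other defining markers were not analysed here.

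The proteasome is a barrel of stacked rings that degrades proteins. Alpha subunits form the outer rings and gate the entrance, beta subunits form the inner rings and hold the proteolytic sites, and a regulatory cap of ATPase and non-ATPase subunits binds, unfolds and feeds in proteins tagged with ubiquitin. The tag is placed in steps by an activating enzyme (E1), a conjugating enzyme (E2) and a ligase (E3), and is trimmed or removed by deubiquitinases, of which the ubiquitin-specific proteases (USP) are the largest family. Cells that lack proteasome activity raise the transcription of most subunit genes together through the factor NRF1, encoded by Nfe2l1, which binds antioxidant response elements in their promoters.

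Because subunit genes are known to be regulated together through their promoters, the bases upstream of 4 members are shown. Psma2, Psmd4 and Ube2n are members with negative differences in the results that follow, and Psmb5 is the catalytic subunit that holds a match to an antioxidant response element. Each line gives the 250 bases before the start site on the strand of the gene, from RefSeq, build GRCm38.p6, and capitals mark a match to CCAAT or to TGACNNNGC on either strand. They are Psma2 at chr13:14612992-14613241 on the plus strand, Psmd4 at chr3:95042615-95042864 on the minus strand, Psmb5 at chr14:54617996-54618245 on the minus strand and Ube2n at chr10:95514912-95515161 on the plus strand.
Psma2: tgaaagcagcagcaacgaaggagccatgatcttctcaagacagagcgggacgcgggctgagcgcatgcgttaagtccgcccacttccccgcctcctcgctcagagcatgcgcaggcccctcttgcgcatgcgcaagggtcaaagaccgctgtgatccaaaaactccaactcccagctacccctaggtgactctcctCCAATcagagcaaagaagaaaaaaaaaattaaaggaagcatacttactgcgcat
Psmd4: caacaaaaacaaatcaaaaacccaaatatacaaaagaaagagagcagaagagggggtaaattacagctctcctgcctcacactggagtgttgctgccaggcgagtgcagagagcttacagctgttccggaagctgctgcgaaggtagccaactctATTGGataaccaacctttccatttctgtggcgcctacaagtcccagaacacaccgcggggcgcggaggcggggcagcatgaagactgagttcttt
Psmb5: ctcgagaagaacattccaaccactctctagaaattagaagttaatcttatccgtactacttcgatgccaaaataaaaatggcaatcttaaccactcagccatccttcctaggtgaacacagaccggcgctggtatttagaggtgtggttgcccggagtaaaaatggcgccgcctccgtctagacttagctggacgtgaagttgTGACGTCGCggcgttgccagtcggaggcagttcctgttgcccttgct
Ube2n: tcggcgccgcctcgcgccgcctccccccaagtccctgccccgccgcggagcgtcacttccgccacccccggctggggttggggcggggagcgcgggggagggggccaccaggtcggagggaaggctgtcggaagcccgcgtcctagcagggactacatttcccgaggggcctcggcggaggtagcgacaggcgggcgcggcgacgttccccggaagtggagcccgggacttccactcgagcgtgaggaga
The Psma2 sequence holds a CCAAT and the Psmd4 sequence the same letters on the opposite strand, read as ATTGG. The Psmb5 sequence holds TGACGTCGC, a match to TGACNNNGC, and the Ube2n sequence holds neither motif in this window. The table of promoters held 81 of the 100 members, and windows of 300 bases (250 before and 50 after the start) were searched on both strands, and neither motif contains the other. TGACNNNGC, the core of the antioxidant response element, was in 3 of 33 proteasome promoters (9.09%: Psmb5, Psmd9 and Psmd12), in 11 of 48 enzyme promoters (22.9%) and in 14% of the promoters of 27025 genes. CCAAT was in 15 of 33 proteasome promoters (45.5%), in 10 of 48 enzyme promoters (20.8%) and in 41.1% of all. A match describes the letters only.

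Over the whole age range, no proteasome or ubiquitin enzyme gene changed with age at the threshold. The slope of each level on age was fitted over 40 mice with sex as a term, in z units per 100 days, with limma, and p was adjusted by Benjamini-Hochberg over all 16896 spots with a threshold of 0.05. None of the 100 members passed (0.0178% of all spots did, 0.0118% with a negative slope), and 12 had an unadjusted p under 0.05 (13.8% of all spots did). Of those 12, 3 had a positive and 9 a negative slope, beside 5.44% and 8.32% of all spots. Of the 40 proteasome genes 14 had a positive and 26 a negative slope, with a median of -0.00208. Of the 60 enzyme genes 31 had a positive and 29 a negative slope, with a median of 0.000789. The median over all spots was 0.00267. After correction for spot position, described below, 20 proteasome genes had a positive and 20 a negative slope, with a median of -0.000423. The enzyme genes then had 30 of each sign and a median of 0.000491, beside 0.000395 over all spots. Other settings called members, at shares close to those of all spots in the same fit. Without the dimmest spots 3 of 72 members (4.17%) passed, all with negative slopes (Psma2, Ube2n and Usp42), beside 4.07% of the 11262 spots kept. On log2 of age 7 of 100 did (those 3 with Psmd4, Psmd7, Uba3 and Ube2e1), beside 7.03% of all spots, and with array weights 8 of 100 did, beside 7.77%. The title numbers run through 5 sets of 8 mice, each with 1 male and 1 female of every age group, and with these sets as a block Psma2 and Ube2n passed (limma adjusted p = 0.0448 for both), 2 of 100 members beside 2.39% of all spots. When each mouse was left out in turn, at least 1 member passed without 11 of the 40 mice and none without the other 29. At most 5 passed, without the female of 33 days. The share of all spots was not set beside these left-out counts, so they are no result about the members alone. Without the male of 714 days Psma2 had -0.0654 and Usp42 -0.0942.

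The alpha ring held the steepest proteasome slope, that of Psma2, a subunit of the gated entrance. Its spot (number 12065, gene number 19166) had a lowest, median and highest z of 0.50, 1.255 and 1.71 in the youngest group, 0.36, 0.875 and 1.47 at 169 to 194 days, 0.43, 0.945 and 1.56 at 476 to 499 days, and 0.20, 0.565 and 1.06 in the oldest. The oldest group was lower on average, 0.579 ± 0.294 (SD, n = 10) against 1.17 ± 0.439 in the youngest, and every pair of groups overlapped. The slope was -0.0718 (SE 0.0206, limma adjusted p = 0.0629). The other 6 alpha subunits had slopes from -0.0154 (Psma6) to -0.00334 (Psma1), each within 2 SE of 0: Psma7 -0.00897, Psma4 -0.00793, Psma3 -0.00598 and Psma5 -0.00584. On the spots that stood for their genes all 7 alpha slopes were thus negative, 7 of 7 beside 7119 of 16896 spots. The adult slope and the step from 6 months to the oldest mice, which use the same mice, were also negative in 7 of 7. Psma3 turned positive after correction for spot position, and 5 of 7 were positive among the 13 mice with title numbers from 46 on. Those 13 held no mouse of 17 to 21 days, so title number and age range cannot be told apart there. From the youngest group to 169 to 194 days 3 alpha differences were positive and 4 negative. Other spots had slopes over 40 mice of 0.013 and -0.0097 (Psma3) and 0.0119 (Psma7).

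Slopes in the beta ring lay between -0.00489 and 0.0071. Psmb5, which cuts after hydrophobic residues, had a slope of -0.00182 (SE 0.0123), and its group means were 0.066, 0.054, 0.023 and 0.057 from the youngest to the oldest, with SDs from 0.182 to 0.274. Psmb7, which cuts after basic residues, had -0.00489 (SE 0.0122), with group means between 0.081 and 0.177. Among the structural subunits Psmb1 had 0.00426, Psmb2 0.00525, Psmb3 0.0071 and Psmb4 -0.00203. Psmb11, the thymus-specific catalytic subunit, had -0.000382. No beta subunit had an unadjusted p under 0.05.

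In the cap, the 4 measured ATPases, which unfold substrates, had slopes between -0.00472 and 0.00476: Psmc1 -0.00472, Psmc5 -0.00221, Psmc3 0.000171 and Psmc2 0.00476. Of the 10 non-ATPase subunits 9 had a negative slope, and 3 of them an unadjusted p under 0.05. Psmd7, the partner of the cap's own deubiquitinase Psmd14, had -0.0579 (SE 0.019, adjusted p = 0.103). Its lowest, median and highest z were 0.51, 1.38 and 2.00 in the youngest group, 0.68, 0.895 and 1.56 at 169 to 194 days, 0.58, 0.995 and 1.51 at 476 to 499 days, and 0.58, 0.845 and 1.12 in the oldest. The youngest group spread widest, from below the lowest adult to above the highest. A second Psmd7 spot on the other spot set had a slope of -0.042 (SE 0.014, adjusted p = 0.11).

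Psmd4, a ubiquitin receptor of the cap, had -0.0298 (SE 0.0109, adjusted p = 0.155), with group means of 0.581 ± 0.211 (SD, n = 10) in the youngest, 0.456 ± 0.148, 0.473 ± 0.176, and 0.333 ± 0.206 in the oldest. Psmd6, a scaffold subunit of the lid, had -0.0284 (SE 0.0107, adjusted p = 0.168), from -0.983 ± 0.142 in the youngest to -1.19 ± 0.244 in the oldest. The groups of each gene overlapped. The other non-ATPase slopes did not reach an unadjusted p of 0.05: Psmd11 -0.011, Psmd1 -0.01, Psmd12 -0.00795, Psmd14 -0.00546, Psmd3 -0.00504, Psmd8 -0.000214 and Psmd2 0.0126. The spots of Psmd2, a scaffold of the base, did not share a sign: the others had -0.072 (SE 0.0225, adjusted p = 0.0827) and -0.00069.

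Psme1, the interferon-induced subunit of the activator that can replace the cap, had a slope of -0.0378 (SE 0.0147, adjusted p = 0.194), with group means of 1.05 ± 0.28 (SD, n = 10), 0.865 ± 0.283, 0.957 ± 0.188 and 0.708 ± 0.243 from the youngest to the oldest. Its other spot had -0.0158 (SE 0.00793). Psme3, the nuclear activator, had 0.00123 (SE 0.0126). Other genes of class I antigen processing that interferon induces did not share the sign of Psme1: B2m had 0.0217, H2-K1 0.0156, Irf1 0.0138 and Tap2 0.00209, none with an unadjusted p under 0.05. Those genes were 5 of 19 on their list with Psme1, and the average of the list in each mouse ran from 0.538 to 0.894 in the youngest group and from 0.674 to 0.988 in the oldest.

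Of the 8 assembly factors and inhibitors 6 had a positive slope. Psmd10, a chaperone of the base also known as gankyrin, had 0.0203 (SE 0.0099, unadjusted p = 0.0468, adjusted p = 0.351), with group means of 0.971 ± 0.215 (SD, n = 10), 1.09 ± 0.118, 1.13 ± 0.127 and 1.12 ± 0.186. Of the chaperones that build the barrel, Psmg4 had 0.024, Psmg3 0.0142, Psmg2 0.00269 and Psmg1 -0.00213. The base chaperones Psmd9 and Psmd5 had 0.00883 and -0.000248, and Psmf1, an inhibitor of the barrel, had 0.00762. The rule also took 2 genes that are named for binding a proteasome protein: Psmc3ip, a cofactor of meiotic recombination, with 0.0151, and Psme3ip1, a partner of the nuclear activator, with -0.00127.

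**Figure D1:**
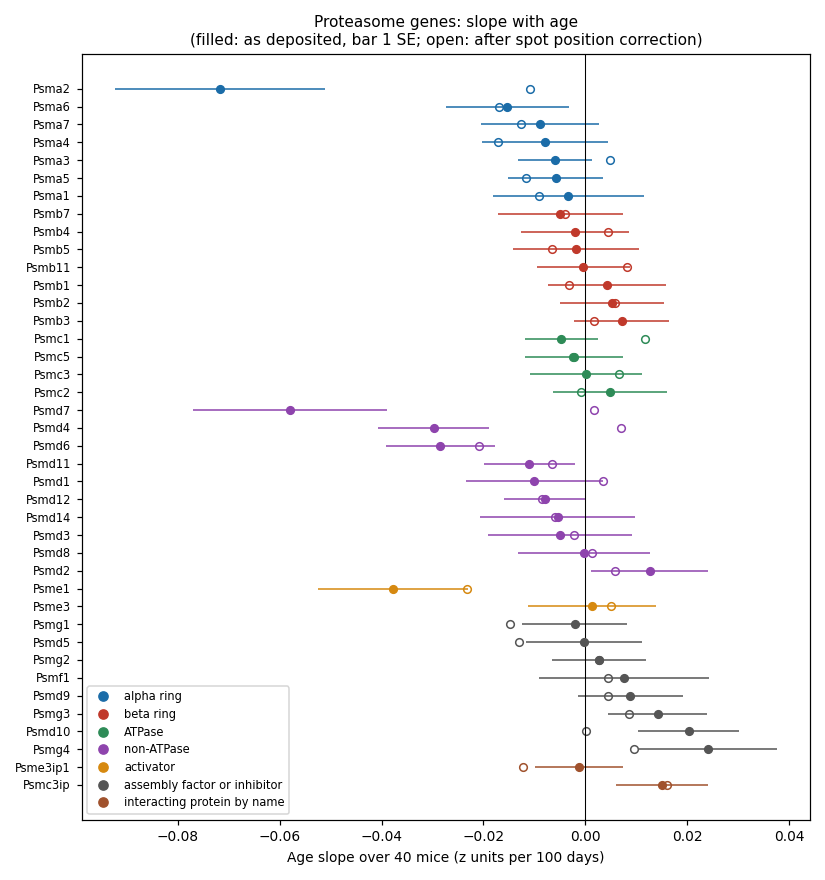
Slope of each of 40 proteasome genes on age over 40 mice, in z units per 100 days, by class; filled points are the values as deposited with a bar of 1 SE, open points those after correction for spot position. Psma2, Psmd7, Psme1, Psmd4 and Psmd6 lie farthest below 0, and the open points of Psma2, Psmd7 and Psmd4 lie near 0.

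Among the ubiquitin enzymes, the steepest slopes were again negative. Ube2n, the E2 that builds chains used in signalling rather than degradation, had a lowest, median and highest z of 0.32, 1.02 and 1.39 in the youngest group, 0.16, 0.69 and 1.10 at 169 to 194 days, 0.38, 0.705 and 1.17 at 476 to 499 days, and 0.21, 0.445 and 0.83 in the oldest. The oldest mice were lower on average, and the groups overlapped. The slope was -0.0572 (SE 0.0157, adjusted p = 0.0537), and that of a second spot -0.0191 (SE 0.0106). The 2 variant partners with which Ube2n forms chains, Ube2v1 and Ube2v2, had -0.00865 and -0.011.

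Usp42, a deubiquitinase, had the steepest slope of all members, -0.102 (SE 0.0306, adjusted p = 0.0715). Its lowest, median and highest z were 0.32, 1.47 and 2.33 in the youngest group, 0.13, 0.76 and 1.76 at 169 to 194 days, 0.07, 0.975 and 1.64 at 476 to 499 days, and 0, 0.465 and 1.11 in the oldest. The other 2 spots named Usp42 had slopes of 0.0203 (SE 0.0151) and 0.0102 (SE 0.0093), so the 3 spots of this gene did not share a sign. Ube2e1, an E2, had -0.0273 (SE 0.00865, adjusted p = 0.0877), and its second spot -0.00272 (SE 0.0111). Uba3, the catalytic subunit of the E1 for the ubiquitin-like protein NEDD8, had -0.0219 (SE 0.00956, adjusted p = 0.27). The fifth by p, Usp10, had -0.0159 (unadjusted p = 0.086).

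In the other direction Ube2j1, an E2 anchored in the endoplasmic reticulum, had 0.0267 (SE 0.0124, adjusted p = 0.315), and Usp21 0.0208 (SE 0.0101, adjusted p = 0.348). Next came Usp36, a nucleolar deubiquitinase, with 0.0208, Usp25 with 0.0277 and Usp32 with 0.0166, each with an unadjusted p over 0.05. By class, 13 of 26 E2 genes and 18 of 33 USP genes had a positive slope, with medians of -0.000314 and 0.00256. The remaining enzyme slopes lay between -0.0272 (Usp33) and 0.0223 (Usp22). Usp24 had -0.00911 on the spot that stood for it, and 1 of its 3 other spots had -0.0835 (SE 0.0261, adjusted p = 0.0843).

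**Figure D2:**
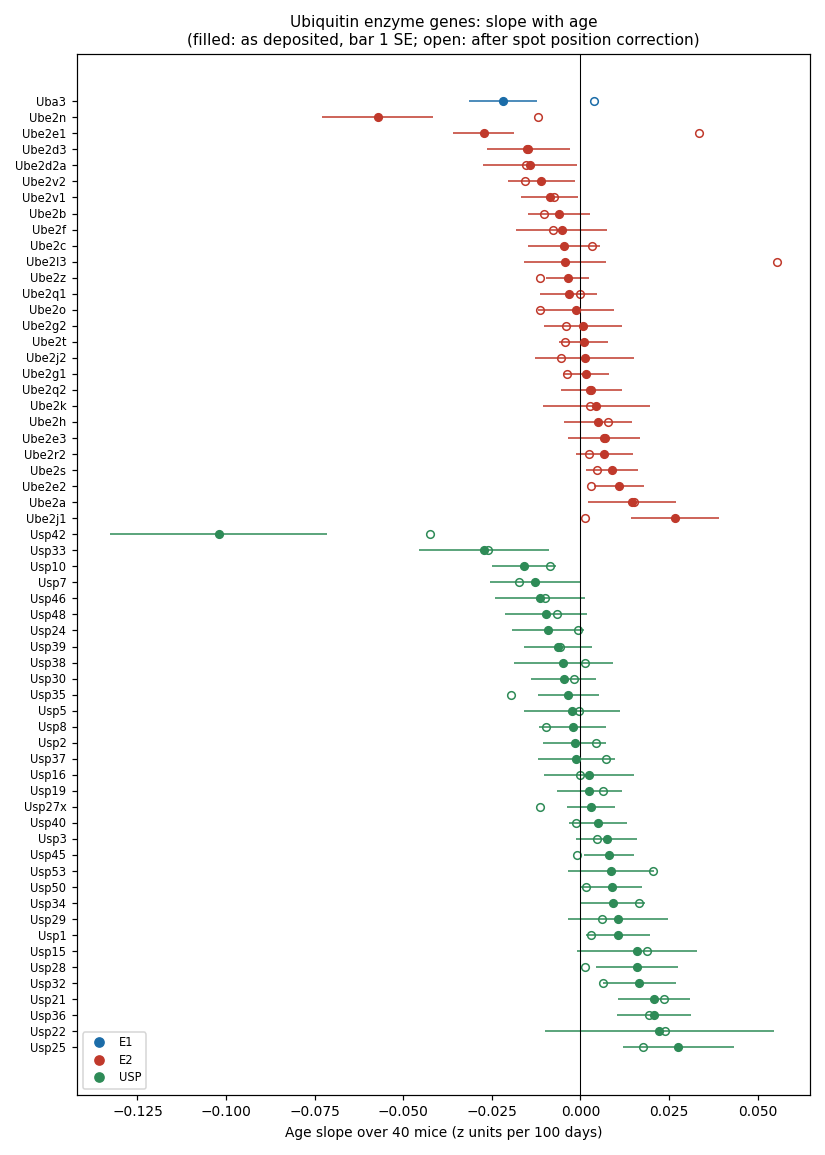
Slope of each of 60 ubiquitin enzyme genes on age over 40 mice, in z units per 100 days, by class; filled points are the values as deposited with a bar of 1 SE, open points those after correction for spot position. Usp42 and Ube2n lie farthest below 0 as deposited, and Ube2e1 and Ube2l3 lie above 0 after the correction.

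**Figure D3:**
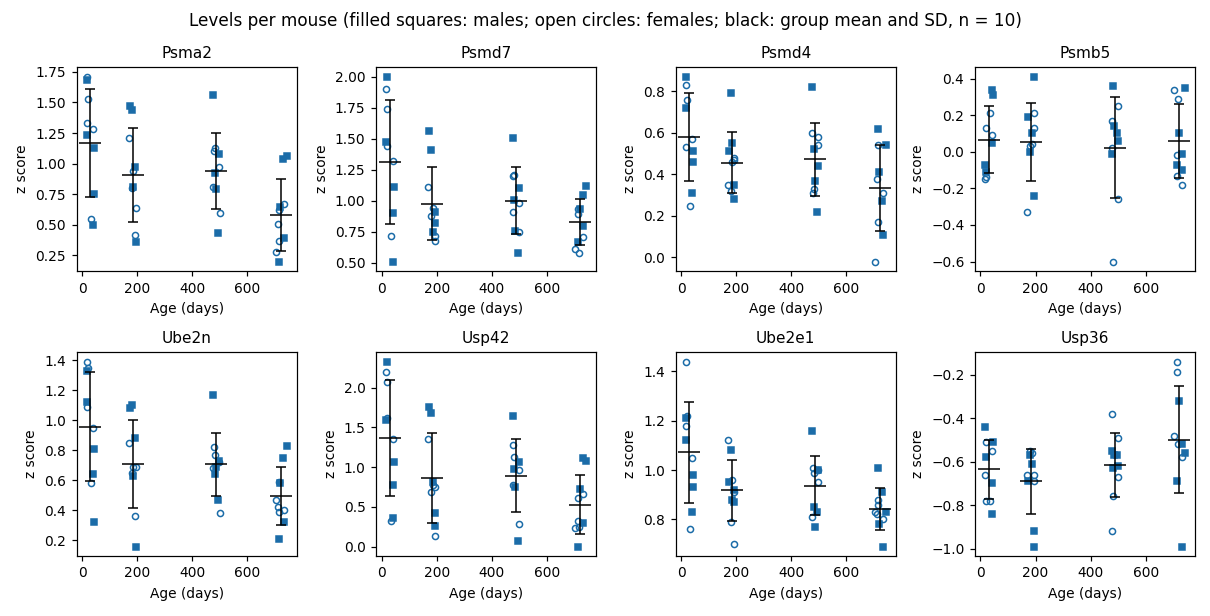
Levels of 8 members in each of 40 mice against age in days, as z scores; black bars give the mean and SD of each age group (n = 10). The youngest mice spread widest for Psma2, Psmd7, Ube2n and Usp42, the group means of Psmb5 lie between 0.023 and 0.066, and Usp36 is highest on average in the oldest group.

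The slopes that leaned downward moved with the correction for spot position. Values by title number and for blood-cell and leukocyte genes are given beside them. Spots lay in 22 columns, and Psma2, Psmd4, Ube2n and Ube2e1 all lay in column 9 of set B, whose 384 spots had a median slope of -0.0379, while Psmd7 and Usp42 lay in column 12 of set A, with a median of -0.00727. After subtraction of each array's median deviation in a block and column, Psma2 had -0.0109 (SE 0.00703), Ube2n -0.0121 (SE 0.0054), Usp42 -0.0424 (SE 0.0145) and Psmd6 -0.0209 (SE 0.0083), while Psmd7, Psmd4, Ube2e1 and Uba3 turned positive (0.00177, 0.00709, 0.0335 and 0.00397). The correction also moved Ube2l3, in the same column as Psmd7, from -0.00427 to 0.0554, a gene named after its values were seen. Over the 27 mice with title numbers below 46 the slope of Psma2 was -0.085 and over the 13 from 46 on -0.0329, and for Ube2n the values were -0.0644 and -0.0375. All 5 mice of 17 to 21 days were among the 27, and the 13 held 2 of the youngest group, both of 33 to 44 days. Title number and the youngest ages therefore cannot be told apart in these values. Blood-cell genes leaned the same way, with -0.116 for Hba-a2, -0.0733 for Hba-a1 and -0.0333 for the erythroid heme enzyme gene Alas2 (3 of 5 listed, adjusted p = 0.057, 0.0537 and 0.225), and their average in each mouse ran from 0.973 to 2.28 in the youngest group and from 0.703 to 1.48 in the oldest. Hba-a2 also lay in column 12 of set A, and Hba-a1 in column 7 of set B with Uba3. After the correction by block and column Hba-a2 had -0.0624, Hba-a1 -0.0311 and Alas2 -0.0361. Of the leukocyte list 4 of 13 genes were measured, with slopes of 0.203 for the immunoglobulin gene Ighm, which passed the threshold, 0.0302 for Cd74, -0.0134 for Lyz2 and -0.00754 for S100a9. The average of these 4 ran from 0.497 to 0.875 in the youngest group and from 0.72 to 1.47 in the oldest. The part of spot position, title number and these cell-type genes in the slopes was not tested beyond the values given.

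Among the 30 mice of 169 days or older no proteasome or enzyme gene had a slope past the threshold, nor did any of 16896 spots (0%). In all, 3 members had an unadjusted p under 0.05 (2.59% of all spots). These were Psma2 with -0.0588 (SE 0.0265), Ube2n with -0.0391 (SE 0.0189) and Usp36 with 0.034 (SE 0.0153), each with a limma adjusted p of 1. The next proteasome genes were Psmd6 with -0.03, Psmd11 with -0.0216 and Psmd4 with -0.0218 below 0, and Psme3ip1 with 0.014, Psme3 with 0.0202, Psmb1 with 0.0164 and Psmd1 with 0.0127 above it. The next enzymes were Usp7 with -0.0332, Usp42 with -0.0615, Ube2e1 with -0.014 and Usp24 with -0.0202 below 0, and Usp22 with 0.0636, Usp21 with 0.0204, Ube2j1 with 0.02 and Ube2a with 0.0221 above it.

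From the youngest group to the mice of 169 to 194 days, no member passed the threshold (0% of all spots did) and 8 had an unadjusted p under 0.05 (5.94% of all spots), 2 higher and 6 lower (1.34% and 4.6% of all spots). Differences are the older less the younger mean in z units. Usp42 had -0.506 (SE 0.235), Psmd7 -0.333 (SE 0.143), Ube2n -0.249 (SE 0.12), Psmd1 -0.201 (SE 0.0987), Ube2e1 -0.154 (SE 0.0663) and Uba3 -0.151 (SE 0.0727). In the other direction Usp15 had 0.271 (SE 0.129) and Psmc3ip 0.17 (SE 0.0656). The next by p were Psme3ip1 with -0.12, Psma2 with -0.263 and Ube2v1 with -0.108 below 0, and Psmd10 with 0.121, Psmd5 with 0.115, Psmg3 with 0.089, Usp29 with 0.168, Usp32 with 0.131, Ube2s with 0.086 and Usp25 with 0.179 above it. With the 5 mice of 33 to 44 days alone as the youngest, Usp42, Psmd7, Ube2n, Uba3 and Ube2e1 had positive differences instead (0.0772, 0.048, 0.0315, 0.0337 and 0.00883).

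From 169 to 194 days to the oldest mice, no member passed (0.00592% of all spots did), and 2 had an unadjusted p under 0.05 (2.5% of all spots, 1.31% higher and 1.2% lower): Psma2 with -0.327 (SE 0.157, limma adjusted p = 0.999) and Usp36 with 0.191 (SE 0.0779, limma adjusted p = 0.999). Usp36 stood at -0.69 ± 0.15 (SD, n = 10) at 169 to 194 days and at -0.499 ± 0.246 in the oldest group, and the groups overlapped. The next by p were Psmd6 with -0.163, Psmd11 and Psmd4 with -0.123 each, Usp7 with -0.189, Ube2n with -0.213, Usp24 with -0.113, Usp42 with -0.335 and Ube2e1 with -0.077. Above 0 were Psme3 with 0.113, Psme3ip1 with 0.077, Psmb1 with 0.086, Psmd8 with 0.079, Usp22 with 0.386, Ube2a with 0.126, Usp21 with 0.106 and Ube2j1 with 0.113. The 4 age comparisons share mice, so their likeness is no independent support.

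No member passed the threshold between males and females, and none of the 16896 spots passed (0%). No member had an unadjusted p under 0.05 either (1.45% of all spots did, 0.574% higher and 0.876% lower in males). The smallest p among the proteasome genes belonged to Psma7, higher in males by 0.112 (SE 0.0626), followed by Psma5 with 0.082, Psmd6 with 0.078 and Psmb5 with 0.09, and to Psmd3, lower in males by -0.115 (SE 0.0771), followed by Psmf1 with -0.107, Psmd9 with -0.059 and Psmb3 with -0.053. Among the enzymes Usp16 had 0.13 (SE 0.0678), Usp34 0.0965, Usp38 0.114, Ube2t 0.046 and Usp40 0.052, and below 0 Usp45 had -0.078 (SE 0.0403), Usp39 -0.087, Ube2j2 -0.117, Usp1 -0.068 and Usp36 -0.067.

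No age slope differed between the sexes at the threshold (0% of all spots), and 2 members had an unadjusted p under 0.05 for the difference (2.01% of all spots, 0.852% positive and 1.15% negative). Psmd8, a lid subunit, had a slope of -0.0346 in males and 0.0347 in females, a difference of -0.0693 (SE 0.0239, unadjusted p = 0.006, limma adjusted p = 0.999). Usp46 had -0.0391 in males and 0.0168 in females, a difference of -0.0559 (SE 0.0243, limma adjusted p = 0.999). The next differences, male less female, were -0.0462 for Psma6, -0.0498 for Psma1, -0.0311 for Psmg2, -0.0363 for Usp28, -0.0245 for Ube2r2, -0.0207 for Ube2e2 and -0.0377 for Ube2d2a. Positive ones were 0.0434 for Psma4, 0.03 for Psmb11, 0.0381 for Psme1, 0.0319 for Psmd1, 0.0409 for Ube2f, 0.016 for Ube2g1, 0.0236 for Usp24, 0.0262 for Usp7 and 0.0324 for Ube2n.

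Members passed the threshold within the youngest group. The labels leave a gap between 21 and 33 days, and 5 mice of 33 to 44 days were compared with 5 of 17 to 21 days, with sex as a term. An earlier look at these data had shown that most calls lie in this comparison, so it was not planned blind to its outcome. Of the 100 members 11 passed, 4 higher and 7 lower in the older mice (7.48% of all spots passed, 1.96% higher and 5.52% lower), and 20 had an unadjusted p under 0.05, 9 higher and 11 lower (19.5% of all spots, 9.24% higher and 10.2% lower). They were 6 of 40 proteasome genes and 5 of 60 enzyme genes. With 1 spot for each of the 7151 genes the share was 9.2%, so the members' share is near that of all genes. All differences in this comparison are 33 to 44 days less 17 to 21 days.

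Of the cap subunits, Psmd7 and Psmd4 fell. Psmd7 stood at 1.44, 1.47, 1.74, 1.90 and 2.00 at 17 to 21 days and at 0.51, 0.72, 0.90, 1.11 and 1.32 at 33 to 44 days. All 5 older mice lay below all 5 younger ones, and the difference was -0.784 (SE 0.159, limma adjusted p = 0.0154). The second Psmd7 spot also fell, by 0.52 (SE 0.11, limma adjusted p = 0.0178). Psmd4 stood at 0.53, 0.72, 0.76, 0.83 and 0.87 against 0.25, 0.31, 0.46, 0.51 and 0.57, with overlap in 1 younger mouse, and fell by 0.333 (SE 0.0923, limma adjusted p = 0.0477). Psma2 of the alpha ring stood at 1.23, 1.33, 1.53, 1.68 and 1.71 against 0.50, 0.55, 0.75, 1.13 and 1.28, and fell by 0.635 (SE 0.16, limma adjusted p = 0.0323). The other 6 alpha subunits did not pass.

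The proteasome genes that rose were chaperones and a gene that is no subunit. Psmg4 stood at 0.07, 0.17, 0.23, 0.28 and 0.30 at 17 to 21 days and at 0.41, 0.57, 0.62, 0.65 and 0.95 at 33 to 44 days, with no overlap, and rose by 0.434 (SE 0.101, limma adjusted p = 0.0251). Psmd10 stood at 0.69, 0.73, 0.78, 0.82 and 0.93 against 1.00, 1.07, 1.16, 1.26 and 1.27, also with no overlap, and rose by 0.361 (SE 0.0832, limma adjusted p = 0.0246). Its other spot had -0.145. Psmc3ip, the recombination cofactor, went from a mean of 1.52 ± 0.0865 (SD, n = 5) to 1.85 ± 0.148 and rose by 0.312 (SE 0.0872, limma adjusted p = 0.0491), and its other spot had 0.0925. The catalytic subunit Psmb5 had 0.263 (SE 0.0888, limma adjusted p = 0.0999) and the activator subunit Psme1 -0.362 (SE 0.121, limma adjusted p = 0.0968), and neither passed. No ATPase and no beta subunit passed.

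Of the enzymes, Usp42 had the largest difference of all members. It stood at 1.59, 1.62, 2.07, 2.20 and 2.33 at 17 to 21 days and at 0.32, 0.36, 0.78, 1.07 and 1.35 at 33 to 44 days, and fell by 1.18 (SE 0.207, limma adjusted p = 0.0132), while its other spots had 0.168 and 0.0075. Ube2n stood at 1.09, 1.12, 1.33, 1.35 and 1.39 against 0.32, 0.58, 0.64, 0.81 and 0.95, and fell by 0.573 (SE 0.115, limma adjusted p = 0.016); its second spot had -0.0642. For both genes the older mice lay below all the younger ones. Uba3 fell by 0.366 (SE 0.0958, limma adjusted p = 0.0375), from 2.23 ± 0.116 (SD, n = 5) to 1.86 ± 0.162. Ube2e1 fell by 0.313 (SE 0.0865, limma adjusted p = 0.0468), from 1.23 ± 0.122 to 0.91 ± 0.116, while its second spot had 0.0658. Ube2j1, the reticulum E2, rose by 0.409 (SE 0.0967, limma adjusted p = 0.0264), from 0.42 ± 0.0648 to 0.826 ± 0.191, and its second spot had 0.0342. Usp25 with 0.444, Usp28 with 0.274, Ube2g2 with 0.212, Usp32 with 0.209 and Usp10 with -0.251 did not pass.

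Of the 57 spots that did not stand for their gene, 4 passed within the youngest, beside 7.48% of all spots, and 3 of them belonged to genes not counted among the 11. The second Usp10 spot rose by 0.465 (SE 0.115, limma adjusted p = 0.0303), against the sign of the first. A spot of Psmd2 fell by 0.872 (SE 0.151, limma adjusted p = 0.013), while the spot that stood for the gene had 0.241 and the remaining one 0.0733. A spot of Usp24 fell by 0.915 (SE 0.207, limma adjusted p = 0.0197), while the one that stood for it had 0.134. The fourth was the second Psmd7 spot, which had the sign of the first. The spots of Psmd7, Psmd2 and Usp24 lay in columns where 26.3%, 21.1% and 17.7% of spots passed. For the column of the Usp10 spot the share was 2.08%.

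**Figure D4:**
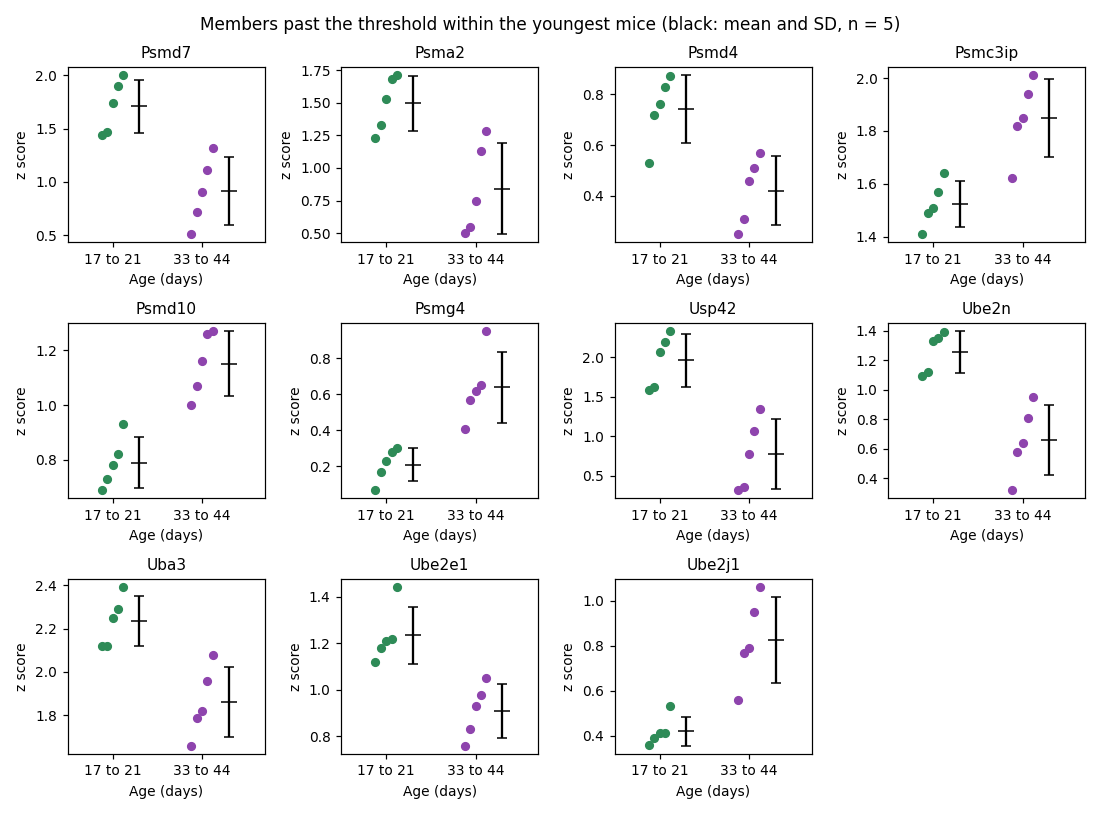
z scores of the 11 members past the threshold in the 10 youngest mice, with 5 of 17 to 21 days and 5 of 33 to 44 days, and the mean and SD beside them in black. The groups do not overlap for Psmd7, Psmd10, Psmg4, Usp42, Ube2n, Uba3, Ube2e1 and Ube2j1, and overlap for Psma2, Psmd4 and Psmc3ip.

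In 9 of the 100 members the 5 younger and 5 older mice did not overlap (8.68% of all spots), the ninth being Psme1 with -0.362. Between the whole youngest and the oldest group no member was free of overlap (0.0178% of all spots).

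These calls moved with the position of the spots. In column 9 of set B 251 of 384 spots were lower in the older mice at the threshold (66.1% passed in either direction), and its median difference was -0.401; all 4 members printed there, Psma2, Psmd4, Ube2n and Ube2e1, were called. Over the 100 members, the difference of a gene and the median of its column had a Pearson correlation of 0.568 and a Spearman correlation of 0.499, a description over genes that share arrays. Of the 11 called members 10 lay on the side of their column's median, Psmc3ip being the exception, and of all 100 members 59 did. After correction by block and column no member passed, and none of the 16896 spots did; Psmd7 had -0.0188, Psma2 -0.0371, Psmd4 0.0551, Uba3 -0.00176 and Ube2e1 0.285, while Psmc3ip had 0.362, Usp42 -0.41 and Psmd10 0.184. With correction by column alone Psmd7 (-0.677) and Usp42 (-1.07) passed. The part of spot position was not tested further.

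**Figure D5:**
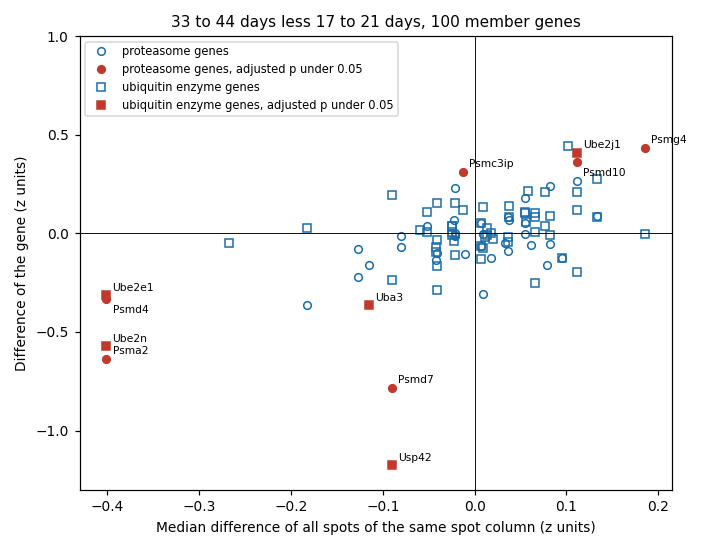
Difference of each of 100 members between mice of 33 to 44 and of 17 to 21 days, in z units, against the median difference of the 384 spots in its column; filled points passed the threshold. Psma2, Psmd4, Ube2n and Ube2e1 sit at a column median of -0.401, while Psmd7 and Usp42 lie well below the median of their column.

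The calls also moved with single mice and with blocks of title numbers, and blood genes differed between the same mice. All 5 mice of 17 to 21 days had title numbers below 46, and of those of 33 to 44 days 3 did and 2 did not. With the 5 sets of title numbers as a block no member passed: Usp42 had -0.837, Ube2n -0.461, Psmd7 -0.587 and Psma2 -0.317, with limma adjusted p from 0.338 (Usp42 and Ube2n) to 0.418 (Psma2), and 0.00592% of all spots passed. Some sets held, of the youngest group, only mice of 17 to 21 days or only mice of 33 to 44 days. Few mice therefore inform the difference in this fit, so its lack of calls decides nothing about title numbers. With the division at 46 as a block none did either: Usp42 had -1.01, Psmd7 -0.707, Ube2n -0.53, Psma2 -0.405 and Psmd10 0.351, with limma adjusted p over these 5 genes from 0.0782 (Usp42) to 0.127 (Psma2). With title number itself as a covariate, by contrast, 11 of 100 members passed, with Psmd2 and Psme1 in place of Psmd4 and Ube2e1. The share of all spots was not set beside that count. Without the male of 19 days or the female of 33 days no member passed, without the female of 17 or of 21 days 3 did (Psmd7, Ube2n and Usp42), without the male of 17 days or that of 40 days 6 did, and without the male of 43 days 7 did. Without the male of 44 days 8 did and without the female of 19 days 9 did. The share of all spots was not set beside these counts, so they are no result about the members alone. Without the female of 40 days 14 did, with Psme1, Usp25 and Usp28 added (11.5% of all spots passed), and the same 14 genes passed of 72 without the dimmest spots (19.4%, beside 15.1% of the spots kept). In the same mice Hba-a2 had -1.26, Hba-a1 -0.659 and Alas2 -0.527, all past the threshold (limma adjusted p = 0.0105, 0.0142 and 0.016), and the average of the blood genes ran from 1.76 to 2.28 in the younger and from 0.973 to 1.51 in the older mice without overlap. After correction by block and column Hba-a2 had -0.624, Hba-a1 -0.248 and Alas2 -0.54. As deposited, Sftpd had -0.0317, Pecam1 0.107 and Cdh5 -0.02, none past the threshold. Their part in the members' differences was not tested.

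Proteasome subunits varied together from mouse to mouse only weakly. Deviations from the mean of each sex and age group were correlated over 40 mice between pairs of subunit genes of the barrel and cap on one spot set. The median r was 0.0984 over 153 pairs on set A and 0.0852 over 36 pairs on set B, beside 0.00194 and 0.000768 over pairs of all genes. After correction for position the medians were 0.0734 and -0.0325. Ubiquitin enzymes had medians of -0.0371 and -0.0359. Pairs of all genes in one column had 0.165 and 0.245, so spots share position as well as arrays, and such weak values describe these arrays only. The residual SD of a level had a median of 0.196 over proteasome genes and 0.171 over enzyme genes, beside 0.193 over all spots.

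Other genes of the pathway were counted from a list of ubiquitin genes, ligases, shuttle factors, other deubiquitinases, ubiquitin-like proteins and the COP9 signalosome, of which 53 were measured. For the slope over 40 mice none passed (0.0178% of all spots did), and 8 had an unadjusted p under 0.05, 4 in each direction (15.1%). That share is near the 13.8% of all spots and the 15.5% of all genes with 1 spot each. Nae1, which pairs with Uba3 as the regulatory subunit of the NEDD8 E1, had the steepest, -0.111 (SE 0.0303, adjusted p = 0.0537), and Cul3, a cullin scaffold that NEDD8 activates, had -0.0351, and Cops8 of the signalosome -0.0531. In the other direction Sem1, a small lid subunit outside the symbol rule, had 0.0333, and the signalosome subunits Cops3 and Cops5 had 0.042 and 0.0245. Nfe2l1, the gene of NRF1, had 0.028 (SE 0.0135, adjusted p = 0.341). Within the youngest mice 6 of 53 passed, 3 lower (Nae1 by -1.13, Cops8 by -0.733 and Cul3 by -0.56) and 3 higher (Vcp, a segregase that extracts tagged proteins, by 0.466, Sem1 by 0.463 and Cops5 by 0.407), or 11.3% beside 7.48% of all spots. With 1 spot for each gene the share over all genes was 9.2%. Of the 41 member genes with several spots, the age slopes of all spots had one sign in 19 and the differences within the youngest in 15.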

How the data were processed

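Per the labels' protocols, RNeasy total RNA of lung homogenised in a bead beater was copied into 33P-labelled cDNA and hybridised to 2 arrays per mouse. The values deposited by the authors are z scores, a score with mean 0 and SD 1 over the spots of each array. Not given in the sources used here are the scale beneath the z score, any background correction and any removal of spots, and the number of arrays limits the precision. Each mouse is 1 sample, and p measures the spread between mice.

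Groups, sex and age came from the labels. The members, the lists and the comparison within the youngest mice were chosen with earlier results of these data known. Moderated two-sided tests (lmFit, then eBayes) were run per spot set with the limma package (3.58.1, R 4.3.3). Adjustment was by Benjamini-Hochberg over 16896 spots, with a threshold of 0.05. On simulated data 71% of spots with a slope of 0.05 per 100 days and 98% with 0.1 were recovered over 40 mice. Within the youngest the shares were 30% with 0.5 z and 90% with 1 z. Recovery where spots of one column or mice of one title set vary together was not tested. In the deposited data no member passed for the slope over 40 mice, the steepest being -0.102 (Usp42). The residual SD of Usp42 was 0.567, beside a median of 0.193 over all spots. Recovery at so wide a spread was not tested separately, so the shares above cannot be read as those for Usp42. Named genes are all proteasome genes for the slope over 40 mice; elsewhere up to 4 proteasome genes, and always up to 5 enzymes, per direction by smallest p; all members past the threshold; catalytic, activator and E1 genes; and 3 other pathway genes per direction. Spot layout (16 blocks of 24 lines and 22 columns) and the division of residuals at title number 46, which no label calls a batch, were read from the data. Alternatives were quantile normalization, leaving out the dimmest spots, eBayes with trend, array weights, spot position, title number, log2 age, all spots of a gene, and left-out mice; the division from 46 on and the block on 5 sets of title numbers were added after seeing the data. Spots with several symbols, 436 in all, were not used. Promoters came from RefSeq (GRCm38.p6), and figures from matplotlib 3.10.9 in Python 3.11.15.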

Additional observations from a re-analysis of the deposited data

Results flagged for a closer look

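Of 82 groups of 5 or 10 mice tested for a mouse far from the others, 3 had one, and chance gives about 1 in 20 such groups. Psmd10 stood at 0.82 in a male of 476 days, with the nearest of its group at 1.05. Psmd4 stood at 0.79 in a male of 180 days, above the next at 0.55. Psme1 stood at 0.40 in a male of 43 days, below the next at 0.90.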

How the results depend on the processing

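For the slope over 40 mice the count of proteasome genes past the threshold went from 0 to 1 without the dimmest spots, 4 with array weights, 3 on log2 of age and 1 with the 5 sets of title numbers as a block, and that of enzymes from 0 to 2, 4, 4 and 1. With 1 mouse left out the counts ran from 0 to 2 for the proteasome and from 0 to 3 for the enzymes. Within the youngest, the 6 proteasome genes became 3 with array weights, 0 with position corrected by block and column, 1 by column, and 0 with any of 3 title number blocks, and ran from 0 to 7 with 1 mouse left out. The 5 enzymes became 3 with array weights or quantile normalization, 2 with the mean of all spots, 0 by block and column, 1 by column and 0 with any of the 3 blocks, and ran from 0 to 7. With title number as a covariate 11 members of both classes together passed within the youngest, and with eBayes with trend 12 did. Shares of all spots were set beside only some of these counts above, and the cause of these shifts was not tested.

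Correction by block and column turned the slopes of Psmd7 (0.00177), Uba3 (0.00397), Ube2e1 (0.0335) and Psmd4 (0.00709), the first age step of Ube2e1 (0.139), and the differences within the youngest of Ube2e1 (0.285) and Psmd4 (0.0551). It moved the median correlation of enzymes on set A to -0.0111 and of subunits on set B to -0.0325. Correction by column turned the slopes of Ube2e1 (0.0117) and Psmd4 (0.00921), the first step of Ube2e1 (0.0389) and the differences within the youngest of Ube2e1 (0.076) and Psmd4 (0.0568), and moved the enzyme median to -0.0022 for the slope and -0.0125 for the first step, where leaving out 1 mouse gave -0.00775 to 0.01425.

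All 5 mice of 17 to 21 days had title numbers below 46. From 46 on the youngest group held 2 mice, both of 33 to 44 days, and that of 169 to 194 days 3. In fits of the later title numbers alone, few mice thus inform the first step, and title number and age cannot be told apart. Over title numbers above 46 alone the slope of Uba3 was 0.00919 and the adult slope of Usp36 -0.00206. There the first step was 0.41 for Psmd7, 0.675 for Usp42, -0.265 for Usp15, 0.11 for Psmd1, 0.175 for Uba3, 0.075 for Ube2e1 and 0.255 for Ube2n, and the last step was -0.0225 for Usp36. The median sex difference of slopes was -0.0187 for the proteasome and -0.00957 for the enzymes. From 46 on, a division chosen after seeing the data, these slopes were 0.00345 and -0.00154, and the first step was 0.468 for Psmd7, 0.843 for Usp42, -0.122 for Usp15, 0.0275 for Psmd1, 0.253 for Uba3, 0.158 for Ube2e1, 0.305 for Ube2n and -0.065 for Psmc3ip, with an enzyme median of -0.0163 and median sex differences of -0.0221 and -0.0114. With 33 to 44 days alone as the youngest, the first step was 0.048 for Psmd7, 0.0772 for Usp42, 0.0337 for Uba3, 0.00883 for Ube2e1 and 0.0315 for Ube2n.

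The adult enzyme median was -0.00237 with array weights and -0.00218 below 46 alone, and the enzyme median within the youngest was 0.0367 without the dimmest spots. With the mean of all spots Psmd2 had -0.186 and Usp10 0.107 within the youngest. The replicate numbers were given in accession order and pair no mice. The title numbers form 5 sets of 8 mice that no label names, and the block on these sets was added after seeing the data. Deviations from the group means had a median r of 0.0932 between mice of 1 set on set A of spots and 0.261 on B (140 pairs each, lowest -0.45 and -0.542), beside -0.0583 and -0.123 between other pairs, and 25 and 23 of 40 mice were closest on average to their own set. The deviations of a group sum to 0 and each set holds 1 mouse of every group. The negative values between other pairs are therefore partly fixed by the centring. No reference count was derived for the mice closest to their own set. With the block on these sets, where few mice inform the difference, the medians within the youngest were 0.0293 for the proteasome and 0.0304 for the enzymes.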
